A study of Mus musculus with 6 samples.

Results

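The interleukin-1 (IL-1) family and inflammasome genes described here are the rows Il1a, Il1b, Il1rn, Il1r1, Il1r2, Il1rl1, Il18, Il33, Nlrp3 and Casp1 of the deposited expression table. They were taken by gene symbol, and all 10 were found among the 23946 genes listed. Macrophages were sorted as CD45+CD11b+F4/80+ cells from the omentum (OM), a fold of peritoneal adipose tissue that carries immune cell clusters, and from the mesenteric adipose tissue (MY). The mice were female C57BL/6 animals of 6 to 8 weeks. Cells came from naive animals without ID8 injection (OM 0h and MY 0h), 24 h after an intraperitoneal injection of ID8 cells (OM 24h and MY 24h) and 7 d after it (OM 7d and MY 7d). ID8 is a mouse ovarian cancer cell line of the C57BL/6 background. Tissue came from 9 mice in groups of 3, and the omenta of a group were pooled. Each condition has 1 library, 6 in all, so no value below has a replicate error, no test was made, and every difference describes a pair of libraries. The study's text also speaks of 3 replicates for the sequencing, and how these and the groups of mice map to the 6 libraries, or whether both tissues of a time point came from the same mice, is not clear from the sources used here. Values are FPKM, that is, fragments scaled to the length of the gene and to the aligned reads of the library, and they can be set side by side between genes. Where 3 values are given for a tissue, their order is naive, 24 h, 7 d.

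IL-1α (Il1a) and IL-1β (Il1b) act through the same receptor, IL-1R1 (Il1r1), which drives NF-κB signalling and inflammation. The family restrains itself at several points. IL-1Ra (Il1rn) occupies the receptor without activating it, and IL-1R2 (Il1r2) is a decoy receptor that binds IL-1 without signalling. IL-18 (Il18) and IL-33 (Il33) are relatives with their own receptors, and the receptor of IL-33 is ST2 (Il1rl1). IL-1β and IL-18 are made as inactive precursors, which are cut by caspase-1 (Casp1) after inflammasomes such as the one built by NLRP3 (Nlrp3) have formed, so RNA levels do not measure released cytokine. In macrophages Il1b and Nlrp3 are inducible, whereas Il18 and Casp1 are largely constitutive.

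Depth is not given by FPKM, and the ratios of low values placed the relative depth of the libraries between 0.859 (OM 0h) and 1.48 (OM 7d) times that of MY 0h. The genes of the 3 sort markers were present in every library, and Emr1, the gene of F4/80, ranged from 20.5 (MY 0h) to 135.0 (OM 24h). Genes of cells that the gate should remove were present as well. The 6 fibroblast genes examined summed to between 221.5 and 1190 FPKM in the omental libraries and to at most 3.10 in the mesenteric ones, and the 5 T cell genes to between 378.6 and 838.3 in the mesentery against 22.4 to 87.5 in the omentum. OM 24h stood apart in several respects. Its 6 macrophage genes summed to 26200 FPKM against 2922 to 7423 elsewhere. Lyz2 made up most of that sum (24780), though each of the 6 was highest there. The macrophage genes were also higher in MY 24h than in MY 0h, 1.96-fold by their mean. Cd74, the invariant chain of MHC class II, was listed at 0 in OM 24h against at least 11323 in the other 5 libraries. In OM 24h the 5 NK cell genes summed to 6.06 against 94.6 to 1480 elsewhere. The 7 mast cell genes summed to 4.38 there against 38.9 to 74.0, and the T cell genes to 22.4 against at least 86.0. In these bulk libraries, fewer cells of a type and less RNA per cell cannot be told apart.

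In the mouse assembly NCBIM37 (mm9, the build of the authors' alignment) with the GENCODE M1 annotation, 3 members lie on chromosome 2. Il1a (129125346 to 129135708) and Il1b (129190306 to 129196875) are neighbours on the minus strand, and Il1rn (24192373 to 24207014) lies apart on the plus strand. The receptor genes Il1r2 (40141613 to 40182064), Il1r1 (40281925 to 40373043) and Il1rl1 (40486415 to 40522260) follow each other on the plus strand of chromosome 1. Casp1 (5298517 to 5307265) and Il18 (50383378 to 50389942) are on chromosome 9, Nlrp3 (59355070 to 59380458) on chromosome 11 and Il33 (29999604 to 30035194) on chromosome 19, all on the plus strand. Stretches of 75 bases shared between a member's coding transcripts and those of other genes numbered 0 for all 10. Il1a, Il1b and Il1r2 each overlap a gene on the opposite strand (Gm14023, Gm14047 and Gm16894). Whether the libraries kept strand is not stated in the sources used here, so reads of these pairs cannot be told apart.

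Among the agonists, Il1b had by far the highest level in the omentum. Its FPKM was 111.8 in OM 0h, 249.4 in OM 24h and 163.0 in OM 7d, against 21.7, 20.5 and 12.2 in the mesentery. All omental values lay above all mesenteric ones, and the lowest omental library was 5.16 times the highest mesenteric one. Il1b stood above 93.1%, 96.7% and 95.9% of the expressed genes in the 3 omental libraries, and above 69.0%, 67.5% and 55.3% in the mesenteric ones. Expressed genes are the 13064 that reached an FPKM of 1 in any library.

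Il1a, the agonist that is active without cleavage by caspase-1, was low in every library except OM 24h. It stood above 49.6% of the expressed genes in OM 24h and above 11.2% to 33.0% in the other libraries. Its FPKM was 0.937 in OM 0h, 9.40 in OM 24h and 1.34 in OM 7d, and 3.84, 4.18 and 2.91 in the mesentery. OM 24h alone stood above the mesenteric libraries, and the other omental libraries lay below all of them. Il18 had the values 27.7, 30.1 and 21.3 in the omentum and 38.4, 54.5 and 23.7 in the mesentery, so the tissues overlapped. Il33, an alarmin held in the nucleus of stromal and epithelial cells, stood at 1.72 in OM 0h, 2.42 in OM 24h and 12.6 in OM 7d, and at 4.01, 4.23 and 2.68 in the mesentery. OM 7d was its highest library and the other omental libraries its lowest. Of the summed FPKM of these 4 ligands, Il1b made up 78.6%, 85.6% and 82.2% in the omentum. In the mesentery its part was 31.9%, 24.6% and 29.3%, and Il18 made up the largest part there with 56.6%, 65.3% and 57.1%.

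**Figure D1:**
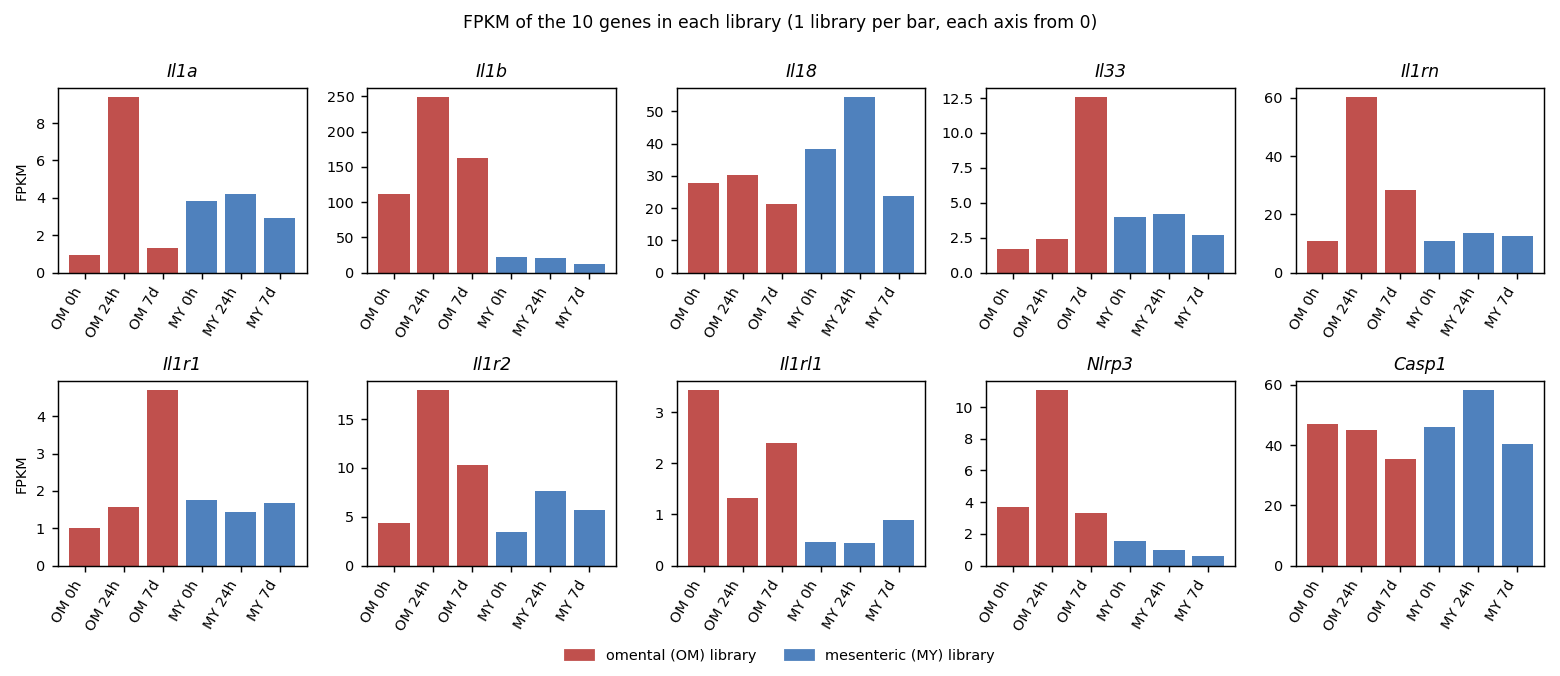
FPKM (linear axes from 0, a separate scale for each gene) of the 10 genes in the 6 libraries, 1 library per bar, with omental libraries in red and mesenteric ones in blue. Il1a, Il1b, Il1rn, Il1r2 and Nlrp3 have their highest bar in OM 24h, Il33 and Il1r1 in OM 7d, Il1rl1 in OM 0h, and Il18 and Casp1 in MY 24h.

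Il1rn, the antagonist gene, was lowest in the naive libraries and highest in OM 24h. Its FPKM was 10.99 in OM 0h, 60.4 in OM 24h and 28.4 in OM 7d, and 10.8, 13.7 and 12.7 in the mesentery. The naive libraries of both tissues were thus nearly level, and both omental libraries after injection lay above all mesenteric ones. The decoy receptor gene Il1r2 stood at 4.36, 18.0 and 10.3 in the omentum and at 3.41, 7.61 and 5.70 in the mesentery. In both tissues its lowest library was the naive one and its highest the one at 24 h. The signalling receptor gene Il1r1 was between 1.002 and 1.75 FPKM in OM 0h, OM 24h and the mesenteric libraries, and 4.71 in OM 7d. Il1rl1 had an FPKM of 3.44 in OM 0h, 1.33 in OM 24h and 2.39 in OM 7d, and of 0.463, 0.446 and 0.894 in the mesentery. The tissues did not overlap for Il1rl1, although the lowest omental value was only 1.49 times the highest mesenteric one.

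The inflammasome genes behaved unlike each other. Nlrp3, the sensor, stood at 3.67 in OM 0h, 11.1 in OM 24h and 3.32 in OM 7d, and at 1.58, 1.002 and 0.623 in the mesentery. Every omental value lay above every mesenteric one, by a factor of at least 2.10. Casp1, the protease, had the narrowest range of the 10 genes. It was 47.1, 44.9 and 35.4 in the omentum and 46.1, 58.4 and 40.4 in the mesentery, a factor of 1.65 between its highest and lowest library. The FPKM of Casp1 was 4.05 times that of Nlrp3 in OM 24h and 64.9 times in MY 7d.

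The first comparison asked how naive omental macrophages differ from naive mesenteric ones. As differences of log2(FPKM + 1), a scale that compresses differences at low FPKM, Il1b was 2.31 higher in OM 0h and Il1rl1 was 1.60 higher, while Il1a was 1.32 lower, a log2 fold change of -1.32. These 3 members were at least 2-fold apart, 2 of them higher and 1 lower in the omentum. The same held for 8.18% of all expressed genes upward and 8.05% downward. Il33 (-0.88) and Nlrp3 (0.86) lay just inside the threshold, and Il1rn (0.02) and Casp1 (0.03) were almost level. The values of Il1a and Il1rl1 were low, and with a pseudocount of 5, or with only members at an FPKM of at least 1 in both libraries, Il1b was the only 1 of the 3 left. When the libraries were instead brought to a common sum of 1000000, 2 members were higher and 2 lower, the added 1 being Il33.

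Between OM 24h and OM 0h, 5 of the 10 members were at least 2-fold higher and 0 were lower, against 11.9% and 6.45% of all expressed genes. The log2 fold changes were 2.43 for Il1a, 2.36 for Il1rn, 1.83 for Il1r2, 1.37 for Nlrp3 and 1.15 for Il1b. The set thus holds both agonists of IL-1R1, its antagonist, the decoy receptor and the inflammasome sensor. The median of the 10 members was 0.75, and that of all expressed genes was 0. Il1rl1 was lower, at -0.93, just short of 2-fold on the log2(FPKM + 1) scale. Its FPKM in OM 0h was 2.58 times that in OM 24h. At a common sum of 1000000 Il1rl1 passed 2-fold and Il1b fell short of it, which gave 4 members higher and 1 lower. Il18 (0.11) and Casp1 (-0.07) differed little between these libraries as deposited.

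Macrophage genes were higher in the same library. Csf1r was 4.32 times, Emr1 4.93 times and Cd68 3.19 times its value in OM 0h, and the geometric mean of the 6 macrophage genes was 4.54 times as high, compared with a ratio of 10.03 for Il1a, 5.50 for Il1rn, 4.13 for Il1r2, 3.02 for Nlrp3 and 2.23 for Il1b. When both libraries were rescaled to these macrophage genes, a choice made after seeing the data, 0 members were at least 2-fold higher and 4 were lower, namely Casp1 (-2.14), Il18 (-1.91), Il1rl1 (-1.78) and Il1b (-1.01). The median of all expressed genes stood at -1.62 on that scale, so most expressed genes were at least 2-fold lower as well. Il1a (0.67) and Il1rn (0.26) stayed above 0, whereas Nlrp3 (-0.44) and Il1r2 (-0.11) turned below it. Directions in OM 24h are thus relative to all genes of the library and not to its macrophage genes. The 5 B cell genes moved the other way, from a sum of 3967 in OM 0h to 904.4 in OM 24h, like the NK, T and mast cell genes. Whether the part of macrophage RNA or of these other cells in the library bears on the members' values was not tested.

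**Figure D2:**
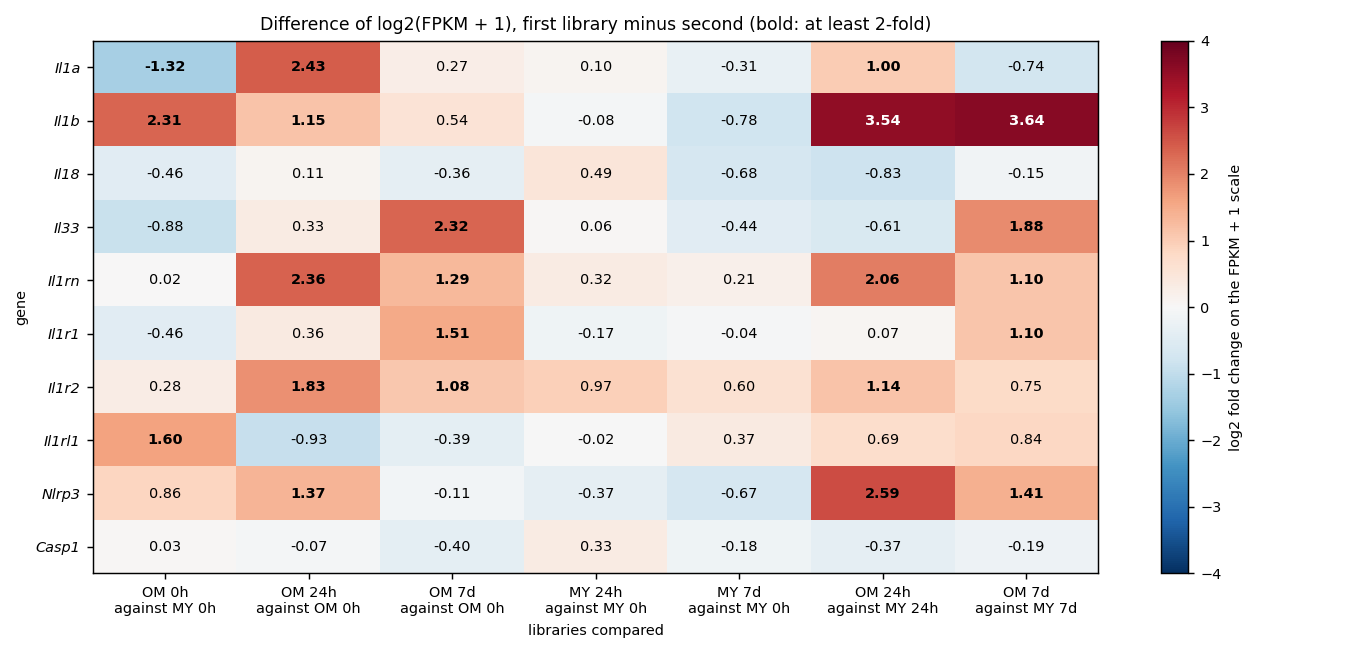
Difference of log2(FPKM + 1) between the first and the second library (colour and number) for the 10 genes (rows) in 7 comparisons (columns), with differences of at least 2-fold in bold. The column OM 24h against OM 0h has 5 bold values, all above 0, and the columns that compare MY 24h and MY 7d with MY 0h have none.

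The promoters of the members were searched for letters of 3 transcription factor motifs, since these factors are known to act on inflammatory genes. RefSeq promoters (table build GRCm38.p6) were found for all 10 members, 16 start sites in all, and the 250 bases before each start matched NCBIM37 exactly at 1 place, which gives the coordinates below. AP-1 was searched as TGANTCA, C/EBP as TTNNGNAA and NF-κB by the κB consensus, each on both strands. The windows shown are, of the 5 members that passed 2-fold upward in OM 24h, those that held a match at the start site nearest to the annotated gene start, with matches in capitals.

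Il1a, NCBIM37 chr2:129135709-129135958, minus strand: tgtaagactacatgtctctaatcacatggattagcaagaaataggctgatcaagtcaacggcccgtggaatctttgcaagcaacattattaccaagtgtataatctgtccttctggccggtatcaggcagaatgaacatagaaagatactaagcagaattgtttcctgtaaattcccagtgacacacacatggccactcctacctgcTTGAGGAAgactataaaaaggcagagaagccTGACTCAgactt

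Il1b, NCBIM37 chr2:129196876-129197125, minus strand: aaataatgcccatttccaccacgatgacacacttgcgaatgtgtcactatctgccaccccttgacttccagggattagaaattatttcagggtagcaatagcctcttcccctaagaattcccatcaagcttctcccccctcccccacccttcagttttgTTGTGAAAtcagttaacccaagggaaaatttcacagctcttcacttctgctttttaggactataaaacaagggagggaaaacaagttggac

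Il1rn, NCBIM37 chr2:24192130-24192379, plus strand: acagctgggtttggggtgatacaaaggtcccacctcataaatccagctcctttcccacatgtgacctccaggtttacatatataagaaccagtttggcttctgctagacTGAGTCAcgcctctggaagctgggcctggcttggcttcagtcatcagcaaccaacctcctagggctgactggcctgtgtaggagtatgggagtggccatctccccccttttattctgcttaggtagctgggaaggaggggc

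Nlrp3, NCBIM37 chr11:59354821-59355070, plus strand: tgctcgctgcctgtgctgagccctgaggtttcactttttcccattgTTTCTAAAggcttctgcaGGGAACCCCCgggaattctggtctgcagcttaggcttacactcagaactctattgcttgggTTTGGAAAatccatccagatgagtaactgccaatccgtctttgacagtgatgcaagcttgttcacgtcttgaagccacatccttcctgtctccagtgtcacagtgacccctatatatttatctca

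The AP-1 letters TGACTCA stood at positions -12 to -6 before the start of Il1a, and TGAGTCA at -141 to -135 before that of Il1rn. The κB letters GGGAACCCCC stood at -186 to -177 before the start of Nlrp3. The C/EBP letters were found in the windows of Il1a, Il1b and Nlrp3, and none of the 3 motifs in that of Il1r2. Of the 10 members, 2 held AP-1 (Il1a and Il1rn), 2 held κB (Il1r1 and Nlrp3) and 7 held C/EBP in at least 1 window. The shares were 7.82%, 8.23% and 40.3% of 27025 genes. These genes had 32851 windows, fewer per gene than the members, which favours a match among the members. Per window, 2, 2 and 12 of the 16 held the motifs, against 6.75%, 7.25% and 36.8% of the 32851. Windows of 1 gene are not independent, and 2 of Il1rn overlap. The κB and a C/EBP match overlap in the window of Il1r1, and 2 C/EBP matches overlap in a downstream window of Il1rn. A match describes letters and is not evidence of binding, and a window without one says nothing about the factor.

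At 7 d the set of members that stood apart was another one. Between OM 7d and OM 0h, 4 members were at least 2-fold higher and 0 lower, against 11.0% and 1.96% of all expressed genes. The log2 fold changes were 2.32 for Il33, 1.51 for Il1r1, 1.29 for Il1rn and 1.08 for Il1r2. Il1rn and Il1r2 were past the threshold at both times, and both comparisons share OM 0h. Il1b stood at 0.54 and Il1a at 0.27, and Nlrp3 at -0.11 was close to its naive level. With a pseudocount of 5, Il33 and Il1rn alone remained past 2-fold.

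In the mesentery, 0 members were at least 2-fold apart on the log2(FPKM + 1) scale at either time. Of all expressed genes, 2.80% were at least 2-fold higher and 1.52% lower in MY 24h than in MY 0h, and 0.498% higher and 2.29% lower in MY 7d. The largest difference of a member on that scale was that of Il1r2 at 24 h, 0.97, just short of the threshold. Its FPKM in MY 24h was 2.23 times that in MY 0h. At 7 d Il1b stood at -0.78, Il18 at -0.68 and Nlrp3 at -0.67. The FPKM of Nlrp3 in MY 0h was 2.54 times that in MY 7d. With a pseudocount of 0.1, Il1r2 passed 2-fold upward at 24 h and Nlrp3 downward at 7 d. Of the 6 macrophage genes, 3 were at least 2-fold higher and 0 lower in MY 24h than in MY 0h. No rescaling to them was made in the mesentery, and their part in the members' values was not tested.

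Setting the tissues against each other after injection gave 5 members higher in OM 24h than in MY 24h and 0 lower, where 13.9% of expressed genes were higher and 10.2% lower. They were Il1b (3.54), Nlrp3 (2.59), Il1rn (2.06), Il1r2 (1.14) and Il1a, which was on the threshold at 1.005. At a common sum of 1000000, Il1b, Il1rn and Nlrp3 were the 3 higher members and Il18 the 1 lower. At 7 d, 5 were higher in OM 7d than in MY 7d and 0 lower, where 14.1% of expressed genes were higher and 4.99% lower. These were Il1b (3.64), Il33 (1.88), Nlrp3 (1.41), Il1rn (1.10) and Il1r1 (1.10). With a pseudocount of 5 the numbers were 3 at 24 h and 2 at 7 d.

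Across all time points, Il1b, Il1rl1 and Nlrp3 were higher in all 3 omental libraries than in all 3 mesenteric ones, and 0 members were lower in all. Among expressed genes, 16.7% were higher in this way and 17.7% lower. The libraries of a tissue are different time points and not replicates, so the count is a description. Only Il1b was separated by at least 2-fold on the log2(FPKM + 1) scale. Leaving out OM 0h added Il1rn and Il1r2, which gave 5 members higher where 25.6% of expressed genes were higher and 25.0% lower. Without OM 24h, OM 7d or MY 7d, 1 member was lower in all omental libraries left, namely Il1a, Il33 and Il18 respectively. The same held for 22.2%, 21.1% and 22.4% of expressed genes.

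Ratios between members within a library do not depend on how libraries are scaled. The FPKM of Il1rn was 0.0982 times that of Il1b in OM 0h, 0.242 times in OM 24h and 0.174 times in OM 7d, and 0.499, 0.671 and 1.05 times in the mesentery. Transcripts of the antagonist were thus fewer per agonist transcript in every omental library than in every mesenteric one, and within the omentum the ratio was lowest in the naive library. The FPKM of Il1r2 was 4.35, 11.5 and 2.19 times that of Il1r1 in the omentum and 1.95, 5.29 and 3.42 times in the mesentery. The decoy receptor was above the signalling receptor in all 6 libraries, with the highest ratio of each tissue at 24 h. Il1b was 4.03, 8.29 and 7.65 times Il18 in the omentum and 0.564, 0.376 and 0.514 times in the mesentery, so the order of these caspase-1 substrates differed between the tissues in all libraries.

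**Figure D3:**
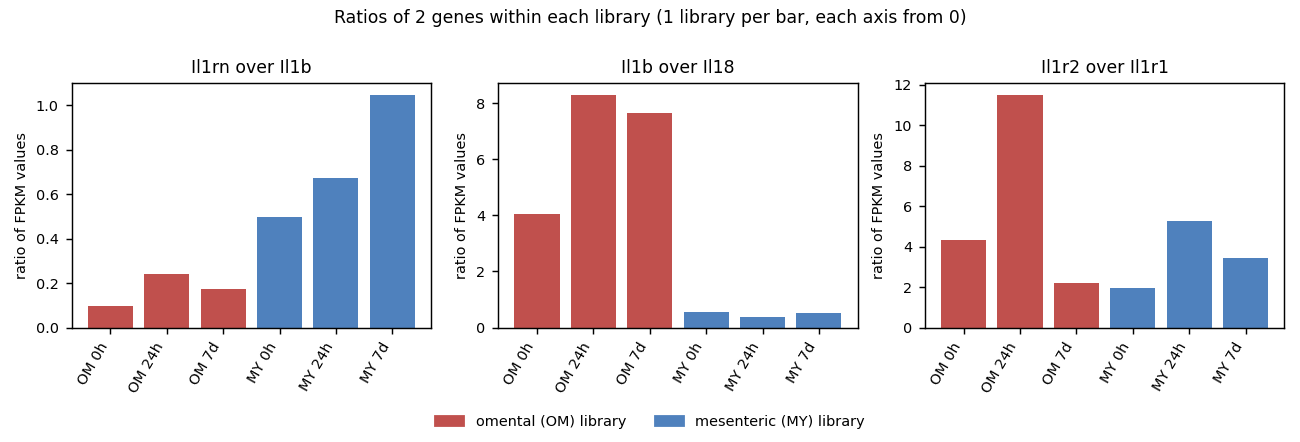
Ratio of the FPKM of 2 genes within each library (linear axes from 0, 1 library per bar, omental libraries in red and mesenteric ones in blue). Il1rn over Il1b is at most 0.242 in the omentum and at least 0.499 in the mesentery, and Il1b over Il18 is at least 4.03 in the omentum and at most 0.564 in the mesentery.

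Marker genes of other cell types moved with several members, and their part in the members' values was not tested. The 6 neutrophil genes in the table (of 7 listed) summed to 5893, 13741 and 14580 FPKM in the omentum and to 624.2, 678.9 and 240.7 in the mesentery, and Il1b, Il1r2 and Il1rn are genes that neutrophils also express. Most of the omental sum came from S100a8 (3020, 7826 and 8381) and S100a9 (2397, 4836 and 5621). Retnlg and Mmp9 were likewise higher in every omental library than in every mesenteric one. Retnlg had 400.0, 872.4 and 500.8 in the omentum and 40.5, 263.1 and 163.1 in the mesentery. Mmp9 had 64.8, 167.7 and 64.1 in the omentum and 10.1, 22.1 and 12.7 in the mesentery. The chemokine receptor gene Cxcr2 did not separate the tissues, with 5.14, 14.0 and 3.43 in the omentum and 4.56, 5.59 and 4.20 in the mesentery. Csf3r, which encodes the receptor of G-CSF, was 24.1 in OM 24h and between 5.99 and 13.4 in the other 5 libraries. The 7 mast cell genes summed to 65.7, 4.38 and 67.8 in the omentum and to 38.9, 43.4 and 74.0 in the mesentery. Their minimum in OM 24h, where Cpa3 and Ms4a2 were listed at 0, is also the library with the lowest omental value of Il1rl1, which mast cells express. In MY 7d the mast cell sum was the highest of all libraries. Il1rl1 was 0.894 there, the highest of its mesenteric values (0.463, 0.446 and 0.894). The type 2 innate lymphoid list holds 5 genes, of cells that also carry ST2. These genes summed to 12.4, 4.27 and 13.0 in the omentum and to 51.1, 64.7 and 80.3 in the mesentery. Their omental minimum was again in OM 24h. Il7r (35.1, 55.8 and 66.8) made up most of the mesenteric sum, Gata3 stood at 14.6, 7.07 and 11.6 there, and the cytokine genes Il5 and Il13 were at most 0.283 in every library. T cell genes were higher in the mesentery as well, and whether this list tracks type 2 innate lymphoid cells was not tested.

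Fibroblast and mesothelial genes were highest in OM 7d, like Il33 and Il1r1, which such stromal cells express. The fibroblast genes summed to 344.6, 221.5 and 1190 and the 6 mesothelial genes to 69.8, 740.7 and 782.4 in the omentum. In OM 24h the mesothelial sum was near that of OM 7d, and Il33 was at 2.42. In the mesentery the fibroblast sum was between 2.08 and 3.10 and the mesothelial sum at most 0.567. Il33 stood at 2.68 to 4.23 there and Il1r1 at 1.44 to 1.75. The part of stromal cells in these values was not tested. Genes that tissue dissociation induces differed between the tissues too. The 8 genes of that list summed to 2741 to 4518 in the omentum and 251.1 to 285.4 in the mesentery, and Fos had 729.8 FPKM in OM 0h against 8.17 in MY 0h, beside the higher Il1b and Nlrp3 of the omental libraries.

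**Figure D4:**
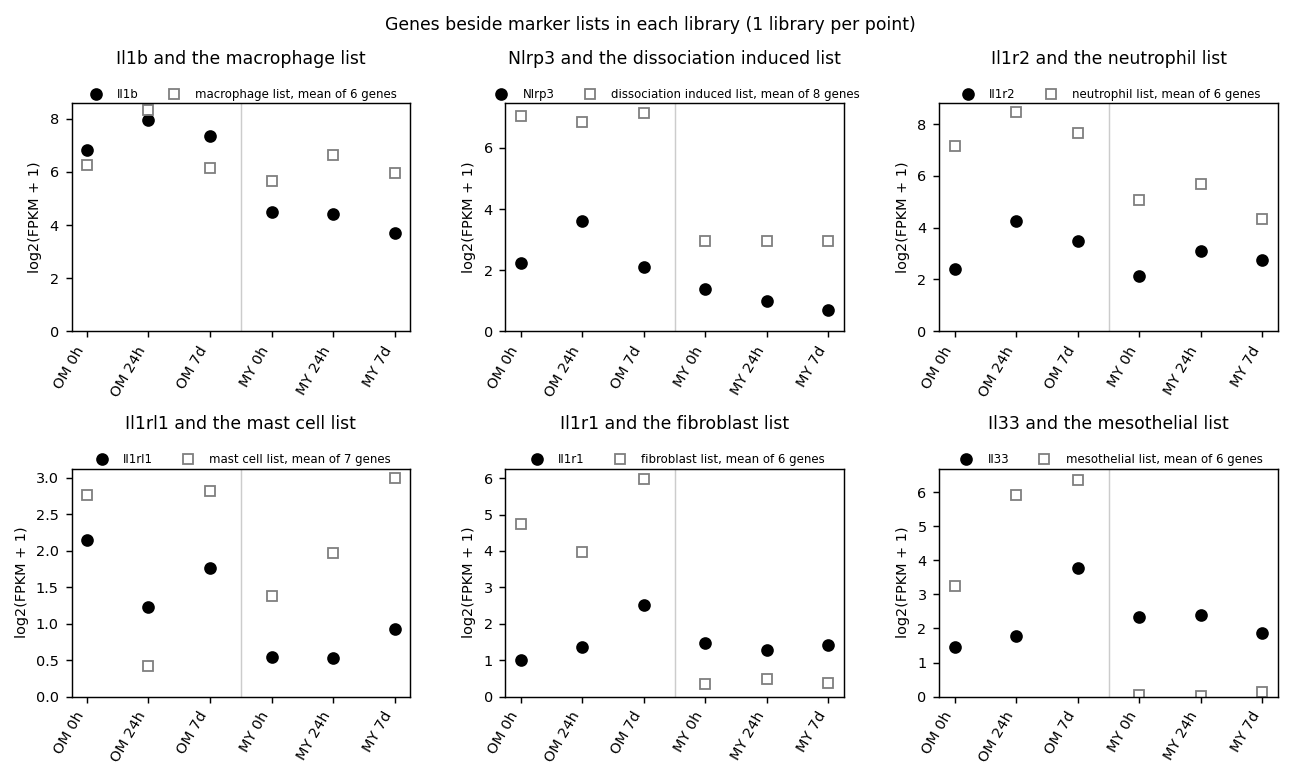
log2(FPKM + 1) of a gene (filled points) and the mean log2(FPKM + 1) of a marker list (open squares) in each library, 1 library per point, with omental libraries left and mesenteric ones right of the grey line. The mast cell list is lowest in OM 24h, and the fibroblast and mesothelial lists are highest in OM 7d together with Il1r1 and Il33.

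The other genes of the pathway were described by 5 lists. Of the 5 other ligands of the family, Il1f5, Il1f6, Il1f8 and Il1f10 were listed at 0 in every library. Il1f9, which encodes IL-36γ, was the only 1 expressed, with 3.11, 7.18 and 2.95 FPKM in the omentum and 0.42, 0.83 and 0.18 in the mesentery. Its omental values were all above the mesenteric ones, as for Il1b.

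Among the 6 other receptors and binding proteins, the genes of IL-18 signalling were lower in the naive omentum. In OM 0h against MY 0h, 0 of the 6 were at least 2-fold higher and 3 lower, which were Il18bp (-2.01), Il18r1 (-1.82) and Il18rap (-1.63). Of all expressed genes, 8.18% were higher and 8.05% lower in that comparison. Il18bp, the soluble binding protein that neutralizes IL-18, was 3.57 in OM 0h, 19.4 in OM 24h and 11.6 in OM 7d, and 17.4, 32.7 and 25.4 in the mesentery. It was 2.16 higher in OM 24h and 1.47 higher in OM 7d than in OM 0h on the log2 scale. The receptor chains Il18r1 and Il18rap were at most 1.93 and 4.38 in the omentum and at least 6.60 and 9.94 in the mesentery. NK and T cells express these chains, and the 5 NK cell genes summed to 6.06 to 217.9 in the omentum and 614.7 to 1480 in the mesentery. Sigirr, an inhibitory receptor of the family, was lower in OM 24h than in OM 0h (-1.27, FPKM 7.13 against 18.6), and Il1rl2, the IL-36 receptor, was the other gene past 2-fold upward (3.28 against 1.01). Il1rap, the co-receptor that IL-1R1 and ST2 share, stayed within 2-fold on the log2(FPKM + 1) scale in all 7 comparisons. It came closest in OM 24h against MY 24h (0.98), where its FPKM of 4.88 was 2.46 times that of 1.98.

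Of the 11 signalling genes downstream of IL-1R1, 0 were at least 2-fold apart from the naive library of their tissue at either time. Among all expressed genes, 11.9% were higher and 6.45% lower in OM 24h, and 11.0% higher and 1.96% lower in OM 7d. The mesenteric shares were small, 2.80% higher and 1.52% lower at 24 h, and 0.498% and 2.29% at 7 d. In OM 0h against MY 0h 2 were higher, Irak3 (1.70), a brake on IL-1 receptor signalling, and Irak2 (1.49), a kinase of the pathway. The share of all expressed genes that were higher was 8.18%. Irak3 was also higher in OM 24h than in MY 24h (1.64, FPKM 17.2 against 4.84). Myd88, the adaptor, was 78.8, 116.4 and 89.8 in the omentum and 79.5, 104.7 and 90.2 in the mesentery.

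Of the 19 other inflammasome and pyroptosis genes, 18 were expressed. In the naive comparison 1 was higher and 2 were lower, namely Nlrc4 (1.32), a sensor that works with NAIP proteins, and Gsdmd (-1.09) and Naip1. These counts are near the share of all expressed genes, 8.18% higher and 8.05% lower. Gsdmd, the pore-forming effector of pyroptosis, was 47.3, 95.6 and 74.8 in the omentum and 101.9, 181.5 and 75.7 in the mesentery. In OM 24h against OM 0h, P2rx7 (1.32), the ATP receptor upstream of NLRP3, was higher and Txnip (-1.06) was lower. Of all expressed genes, 11.9% were higher and 6.45% lower. P2rx7 had 2.66 times its FPKM of OM 0h, beside 4.54 times for the geometric mean of the macrophage genes. At 7 d in the omentum and at both times in the mesentery 0 of the 18 were past 2-fold. The shares of expressed genes were 11.0% higher and 1.96% lower in OM 7d. They were 2.80% and 1.52% in MY 24h, and 0.498% and 2.29% in MY 7d. The mesenteric counts are thus near the share of all expressed genes. Pycard, the adaptor ASC, ranged from 50.4 to 67.1 in the omentum and from 85.9 to 114.1 in the mesentery. Reads of the Naip genes, which are near copies of each other, may be split between them, so their values are uncertain.

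The 11 genes of the NF-κB response, a pathway that IL-1 and many other stimuli engage, separated the tissues more than the pathway's own components did. In OM 0h against MY 0h, 6 were at least 2-fold higher and 0 lower, with a median of 1.40, where 8.18% of expressed genes were higher. The genes induced by dissociation moved with them, 8 of 8 higher and 17.2-fold by their mean, and their part was not tested. The highest of the NF-κB list were the chemokines Cxcl2 (5.24) and Cxcl1 (3.14), the prostaglandin synthase gene Ptgs2 (2.87) and Zfp36 (2.53). In OM 24h against OM 0h, 5 were higher and 0 lower, among them Cxcl2 (2.31, 261.5 against 52.0 FPKM), Cxcl1 (1.61), Tnf (1.21) and Ccl3 (1.10). Of all expressed genes, 11.9% were higher and 6.45% lower there. The FPKM ratios were 5.03 for Cxcl2, 3.28 for Cxcl1, 2.43 for Tnf, 2.31 for Il6 and 2.17 for Ccl3. The geometric mean of the macrophage genes was 4.54 times as high in OM 24h, and its part in these values was not tested. At 7 d 0 were past 2-fold in the omentum, where 11.0% of expressed genes were higher and 1.96% lower. In the mesentery 0 were past it at 24 h, where these shares were 2.80% and 1.52%. At 7 d Ccl3 (-1.34) and Ccl4 (-2.18) were lower in the mesentery, as were 2.29% of expressed genes.

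**Figure D5:**
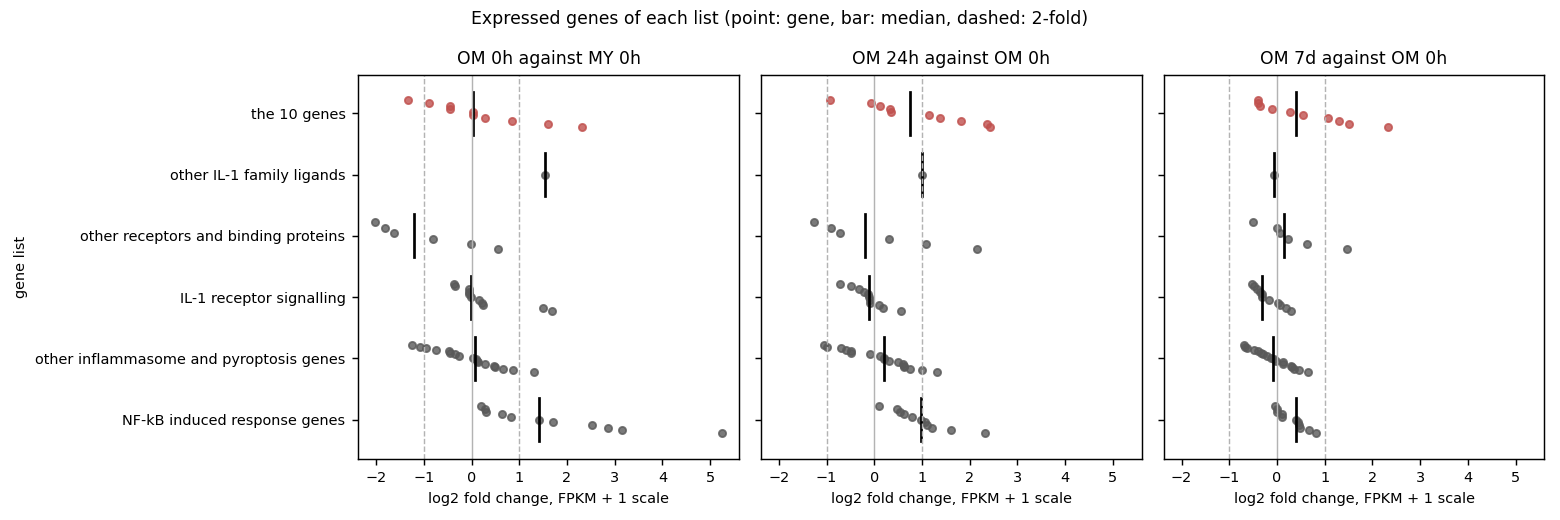
log2 fold change on the FPKM + 1 scale (x axis) of each expressed gene (points) of the 10 genes and of 5 further lists (rows) in 3 comparisons, with a bar at the median of the list and dashed lines at 2-fold. The median of the NF-κB list is 1.40 in OM 0h against MY 0h, and no signalling gene passes 2-fold in OM 24h or OM 7d against OM 0h.

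For the 8 members that reached an FPKM of 5, the genes with the most similar pattern were looked up among 7991 genes, by Pearson's r of log2(FPKM + 1) over the 6 libraries. With 6 libraries, high values arise easily across so many genes, and the points share their libraries. For Il1b they were Chil1 (0.997), Ccl2 (0.997) and Anxa1 (0.996). For Il1rn, Htra3 (0.995) and Itgb5 (0.993) were among them. For Il1a they were Sppl2b (0.994), Cd33 (0.992) and Rab3il1 (0.985). The closest gene was Pop4 (0.994) for Nlrp3, Epb4.1l2 (0.991) for Il1r2, 4930506M07Rik (0.988) for Il18, Tmem161a (0.987) for Il33 and Srp14 (0.975) for Casp1.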

How the data were processed

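Macrophages of 2 tissues were profiled by RNA sequencing at 3 time points, with 1 library each. Per the labels and methods, the authors checked reads with FastQC 0.11.4, aligned them to mm9 with STAR 2.4.2a and computed FPKM with Cufflinks. The deposited file holds FPKM by symbol, scaled within each library only, and carries no read counts, so no count test was run. Groups were taken from the sample titles. From the FPKM, differences of log2(FPKM + 1) between 2 libraries were computed with Python 3.11.15, numpy 2.4.6 and pandas 2.3.3, and figures drawn with matplotlib 3.10.9. A difference of at least 2-fold was counted among the 13064 genes that reached an FPKM of 1 in any library. The scripts were tested on simulated data. With 1 library per condition no error is given and no test was made.

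The members, the 5 further lists and the 13 marker lists were chosen with earlier results of these data known. Named were all members and, of each further list, up to 4 genes with the largest fold past 2-fold at an FPKM of at least 5 in the naive tissue comparison and in the comparisons of the omentum over time, and the 3 genes most alike each member at an FPKM of at least 5, among genes that reached 10, of which not all are reported here. Any other gene was picked with its values in view. Alternatives were pseudocounts of 0.1 and 5, other filters, rescaling by the median ratio and to a sum of 1000000, and, added later, rescaling to macrophage genes and leaving out libraries. Positions and promoters were matched to NCBIM37, with GENCODE M1, whereas the authors' annotation came from UCSC. Protein sequences were not used here.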

Additional observations from a re-analysis of the deposited data

Results flagged for a closer look

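Some members moved in opposite directions in the omentum and the mesentery after injection, each tissue against its naive library. With 1 library per condition these differences were not tested, and many of the values are close to 0. At 24 h, Il1b stood at 1.15 in the omentum and -0.077 in the mesentery on the log2(FPKM + 1) scale. Nlrp3 stood at 1.37 and -0.37. Il1r1 stood at 0.36 and -0.17, and Casp1 at -0.067 and 0.33. At 7 d, Il33 stood at 2.32 in the omentum and -0.44 in the mesentery, and Il1r1 at 1.51 and -0.045. Il1b stood at 0.54 and -0.78, Il1a at 0.27 and -0.31, and Il1rl1 at -0.39 and 0.37.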

How the results depend on the processing

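No paired analysis was possible because the conditions share fewer than 2 replicate numbers. A fit of the tissues paired by time point was not run. Of 280 recomputed log2 fold changes of members under pseudocounts of 0.1 and 5, median-ratio rescaling and a common sum, 265 stayed within 0.58 of their value, the log2 of 1.5, and 15 moved further, none with a change of sign in a value past 2-fold. The 12 recomputed log2 ratios of Il1rn to Il1b also stayed within 0.58. Of 45 recomputed counts, 36 stayed within 1.5 times. For OM 0h against MY 0h the 3 members became 5 with a pseudocount of 0.1 but 1 when it was 5, and 1 with an FPKM of at least 1 required in both libraries. A pseudocount of 5 left 2 for OM 7d against OM 0h, 3 for OM 24h against MY 24h and 2 for OM 7d against MY 7d. A pseudocount of 0.1 gave 1 for MY 24h against MY 0h and 1 for MY 7d against MY 0h. Requiring a 2-fold gap left 1 of the 3 members without overlap between the tissues. Leaving out each library in turn gave 3 to 5 members, with 5 higher without OM 0h (25.6% of expressed genes). Without OM 24h, OM 7d or MY 7d, 1 member was lower (22.2%, 21.1% and 22.4% of expressed genes). Rescaling to the macrophage genes, added after seeing the data, turned OM 24h against OM 0h to 4 members, all lower, which were Casp1 (-2.14), Il18 (-1.91), Il1rl1 (-1.78) and Il1b (-1.01). Most expressed genes were at least 2-fold lower on that scale too, with a median of -1.62. Il1r2 (-0.11) and Nlrp3 (-0.44) changed sign without passing 2-fold. The same rescaling left 4 higher for OM 7d against OM 0h, where the median of expressed genes was 0.088. A common sum of 1000000 put the median of all expressed genes at -0.27 for OM 24h against MY 24h, -0.19 for OM 0h against MY 0h, -0.17 for OM 24h against OM 0h and 0.12 for OM 7d against OM 0h. Read numbers per gene are unknown, so values near an FPKM of 1, as for Il1r1, Il1rl1 and Nlrp3 in the mesentery, have unknown precision.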
